A study of Mus musculus with 6 samples.

Results

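The genes described here are 10 genes of fibroblast growth factor (FGF) signalling and of the response to its effector kinase ERK. All were followed in mouse embryonic stem cells with an intact or a disrupted gene for the adhesion protein E-cadherin. They were chosen by gene symbol, and all 10 were found among the 55401 genes of the count table. They are the ligand Fgf4, the receptors Fgfr1 and Fgfr2, the inhibitors Dusp6, Spry2, Spry4 and Spred1, and the transcription factors Etv4, Etv5 and Egr1. RNA sequencing was done on 3 libraries of wild type (WT) V6.5 cells, an embryonic stem cell line from a hybrid mouse embryo, and on 3 libraries of V6.5 cells with the genotype Cdh1-/-, in which the gene for E-cadherin is disrupted. The libraries of each genotype carry the letters A, B and C. The labels name no culture medium, treatment, age or number of clones, and do not say that the libraries of a genotype came from separate cultures, so the p-values measure the spread between these libraries, which may be technical.

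FGF ligands bind receptor tyrosine kinases together with heparan sulfate chains, and the active receptor signals through RAS, RAF and MEK to ERK. In mouse embryonic stem cells FGF4 is the main FGF the cells make themselves, and its signal through ERK prepares them to leave the naive state and, in the embryo, directs inner cell mass cells towards primitive endoderm. ERK induces genes that feed back on the cascade, among them the Sprouty and Spred inhibitors and the ERK phosphatase DUSP6, as well as ETS transcription factors such as ETV4 and ETV5 and the immediate early factor EGR1.

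The libraries held between 18020719 counts (knockout A) and 23381942 counts (knockout B). Levels are given as CPM (counts scaled to library size) after TMM scaling, and a gene was called changed at an adjusted p under 0.05 in edgeR's quasi-likelihood test with Benjamini-Hochberg adjustment over all 17325 tested genes. Of these, 2307 were called (13.3%), 1317 of them higher in the knockout (7.6%) and 990 lower (5.71%). Cdh1, the targeted gene, stood at 559 ± 19.1 CPM (SD, n = 3) in WT and at 173 ± 9.05 CPM (SD, n = 3) in the knockout, a log2 fold change of -1.70. All 10 stem cell markers listed were tested, and 1 was called, Tdgf1, a NODAL co-receptor, at a log2 fold change of 0.63. Their summed level was 4957 to 5396 CPM in the WT libraries and 5461 to 6677 CPM in the knockout libraries. The log2 fold change was above 0 for 7 of the 10. Of 10 fibroblast markers that would mark feeder cells, Fap had 0 counts in every library, where a floor of 6 counts corresponds to 0.262 to 0.332 CPM. Of the 10, 5 were tested, Fbn1 was called higher and Col1a1 lower, and the summed level of all 10 was 36.5 to 50.9 CPM in WT and 41.3 to 58.2 CPM in the knockout. Fbn1 made up most of the knockout sum, at 36.4, 29.3 and 43.4 CPM in libraries A, B and C, and the other 4 tested fibroblast markers had fold changes below 0 on the log2 scale. All 10 primitive endoderm markers listed were called higher, and their summed level was 178 to 268 CPM in the WT libraries and 501 to 966 CPM in the knockout libraries. Of these markers, Gata4 and Sox7 lie on chromosome 14, where the median log2 fold change of tested genes was 0.53. Sox17 lies on chromosome 1, where that median was -0.33. In bulk RNA, fewer cells of a type and less RNA per cell cannot be told apart, and the part that endoderm-like expression has in the values below was not tested.

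The stretches of 250 bases before the RefSeq start sites (build GRCm38.p6) of 3 genes are shown because these genes had different outcomes in the comparison: Fgf4 was called higher, Spry2 was called higher on a chromosome that was itself shifted, and Dusp6 was not called. RefSeq promoters were matched for 6 of the 10 genes. Capitals mark GGAA, the core bound by ETS factors, and GGGCGG, the GC box bound by SP1-type factors, each searched on both strands, so that TTCC and CCGCCC are matches too. The Fgf4 stretch is chr7:144861136-144861385 on the plus strand, the Spry2 stretch is chr14:105896820-105897069 on the minus strand and the Dusp6 stretch is chr10:99262981-99263230 on the plus strand.
Fgf4: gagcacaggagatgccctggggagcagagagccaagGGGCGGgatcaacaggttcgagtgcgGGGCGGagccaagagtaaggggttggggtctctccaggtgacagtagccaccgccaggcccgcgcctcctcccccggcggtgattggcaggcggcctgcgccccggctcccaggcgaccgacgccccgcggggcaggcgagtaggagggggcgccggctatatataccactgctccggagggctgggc
Spry2: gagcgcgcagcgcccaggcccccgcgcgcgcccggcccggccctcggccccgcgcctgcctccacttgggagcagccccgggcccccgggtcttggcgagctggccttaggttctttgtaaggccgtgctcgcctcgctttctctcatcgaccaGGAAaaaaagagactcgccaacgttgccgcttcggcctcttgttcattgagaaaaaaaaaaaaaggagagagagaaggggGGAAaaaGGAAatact
Dusp6: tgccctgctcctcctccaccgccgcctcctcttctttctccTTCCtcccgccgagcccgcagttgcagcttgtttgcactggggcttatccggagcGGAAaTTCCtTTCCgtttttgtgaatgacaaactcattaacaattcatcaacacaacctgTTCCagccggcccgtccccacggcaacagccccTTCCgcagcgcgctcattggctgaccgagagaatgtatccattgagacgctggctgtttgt
The Dusp6 stretch held 6 ETS cores and no GC box, that of Spry2 held 3 cores and no GC box, and that of Fgf4 held 0 cores and 2 GC boxes. Among 32851 promoter stretches of this length, 93.4% held at least 1 GGAA core, with a median of 3, and 32.7% held a GC box. A match is a description of these letters and not a bound site.

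Of the 10 genes, 3 were called in the knockout, all of them higher: Etv4, Spry2 and Fgf4. This is to be read against 13.3% of all tested genes called and 7.6% called higher. None was called lower by edgeR, DESeq2 or limma-voom, and none but these 3 had an unadjusted p under 0.05. The median log2 fold change of the 10 was 0.21, against -0.01 over all tested genes. The libraries of the 2 genotypes did not overlap for 3 genes, Fgf4, Fgfr1 and Etv4, where 30.7% of all tested genes did not overlap.

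**Figure D1:**
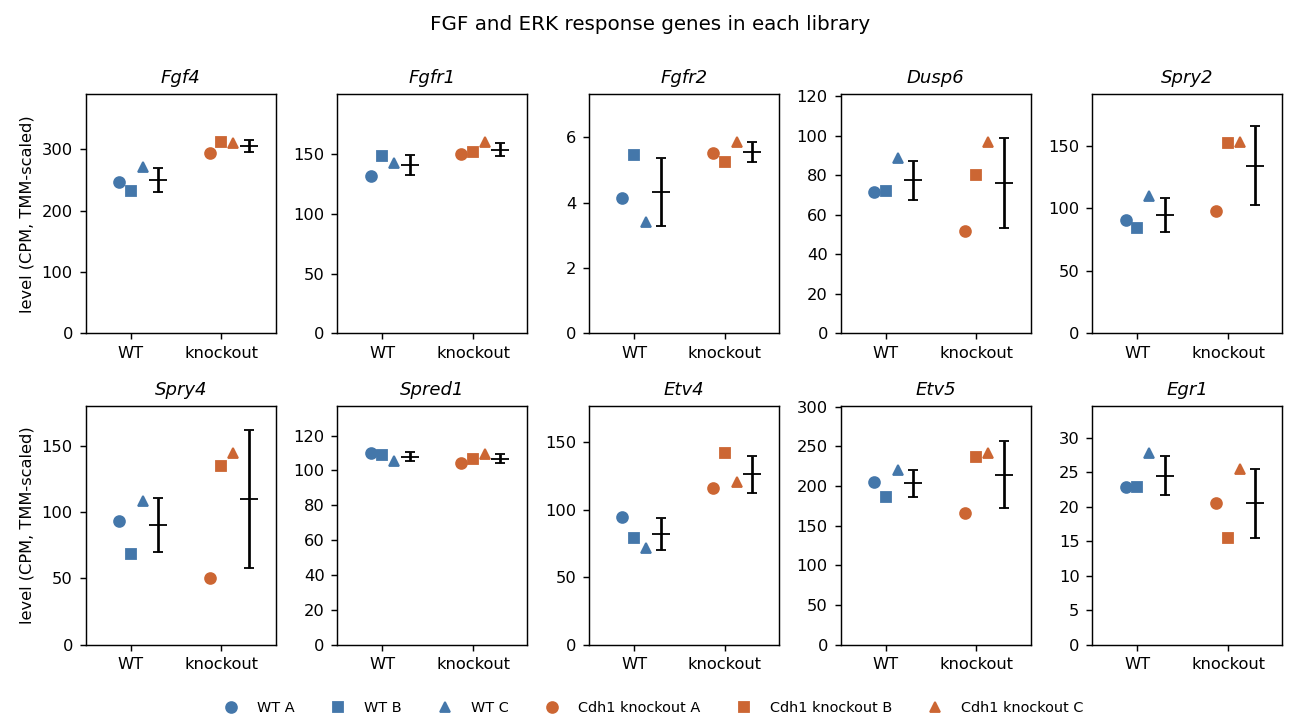
Level of each of the 10 genes in every library, in TMM-scaled CPM on linear axes that start at 0, with WT libraries in blue, knockout libraries in orange, and the mean with its SD (n = 3) in black beside each group. The groups are apart for Fgf4, Fgfr1 and Etv4, and knockout A lies far under knockout B and C for Spry4, Dusp6, Spry2 and Etv5.

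Per length of transcript, in TPM, a unit that corrects for gene length, the ligand was the most abundant of the 10 genes in WT cells, at 207 ± 11.5 TPM (SD, n = 3). Etv5 followed at 127 ± 8.27 TPM and Spry2 at 114 ± 13.1 TPM, and the libraries of these neighbours overlapped. Etv4 at 86.1 ± 14.6 TPM, Dusp6 at 69.5 ± 6.75 TPM and Fgfr1 at 67.8 ± 3.88 TPM formed a group in which each overlapped the next. Spry4, at 47.5 ± 9.80 TPM, and Spred1, at 40.1 ± 2.06 TPM, also overlapped. Egr1 at 13.7 ± 1.17 TPM and Fgfr2 at 2.14 ± 0.55 TPM lay apart from the others and from each other (SD, n = 3 for each gene).

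Fgf4 lies at chr7:144861386-144865243 on the plus strand (GRCm38). Its level was 247, 232 and 271 CPM in WT libraries A, B and C, and 294, 312 and 310 CPM in knockout libraries A, B and C. Every knockout library lay above every WT library. The log2 fold change was 0.29 (SE 0.08, 95% interval 0.11 to 0.47, edgeR adjusted p = 0.0352), a 1.22-fold higher mean. The call was lost when WT A (adjusted p = 0.133), WT B (0.155), knockout B (0.0982) or knockout C (0.102) was left out, while the log2 fold change stayed between 0.24 and 0.29 in these 4 fits. Fgf4 made up most of the ligand RNA in both genotypes, 77.7% of the summed TPM of 22 Fgf genes in WT and 79.5% in the knockout.

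Fgfr1 was the most abundant FGF receptor, with 80.4% of the summed TPM of the 4 kinase receptors in WT and 75.3% in the knockout. Its level was 131, 148 and 142 CPM in the WT libraries and 150, 151 and 160 CPM in the knockout libraries. The groups lay apart by a small margin, and the log2 fold change of 0.13 (95% interval -0.05 to 0.31, edgeR adjusted p = 0.365) did not pass. Fgfr2, the receptor that primitive endoderm cells carry, stood at 4.14, 5.46 and 3.40 CPM in WT and at 5.53, 5.24 and 5.85 CPM in the knockout. The WT libraries spread over a wider range than the knockout libraries, WT B reached into the knockout range, and the log2 fold change of 0.35 (95% interval -0.16 to 0.86, adjusted p = 0.381) did not pass. In the table's gene model 6.14% of the exon bases of Fgfr2 lie in exons of Ctbp2 on the same strand. A part of the low Fgfr2 count is therefore uncertain. For Fgfr1, 3.14% of the exon bases lie under Gm16159 on the opposite strand. Such overlap was larger for some other genes named in the text, among them Fgfr3 (9.93%), Ccnd1 (21.87%) and Fbn1 (20.34%). The effect of the overlap on the counts was not tested.

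Spry2 encodes a Sprouty protein, an inhibitor that receptor tyrosine kinases induce against their own signal. It lies at chr14:105891947-105896819 on the minus strand. Its level was 90.5, 84.2 and 110 CPM in WT and 97.9, 152 and 153 CPM in the knockout. Knockout A lay inside the WT range, and knockout B and C lay above it. The log2 fold change was 0.50 (SE 0.15, 95% interval 0.18 to 0.82, edgeR adjusted p = 0.0374). Chromosome 14 as a whole was shifted: its median log2 deviation from WT was 0.54 to 0.55 in the 3 knockout libraries, and the 16 expressed genes within 5 Mb of Spry2 had a median log2 fold change of 0.47. With the medians of chromosomes 1 and 14 removed, the log2 fold change of Spry2 was -0.04 (adjusted p = 0.912). The call was also lost without WT A (adjusted p = 0.148), WT B (0.184), knockout B (0.164) or knockout C (0.162), at log2 fold changes of 0.41 to 0.47, and without knockout A the value was 0.69.

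Spry4, the Sprouty relative of Spry2, had the widest spread of the 10 genes within the knockout. Its level was 93.0, 68.5 and 109 CPM in WT and 50.0, 135 and 144 CPM in the knockout. Knockout A lay under all WT libraries, and knockout B and C lay above all of them. The log2 fold change was 0.29 (95% interval -0.30 to 0.88, edgeR adjusted p = 0.559). Without knockout A it was 0.63 and passed, at an adjusted p of 0.0019, where 15.5% of the 18000 genes tested in that fit were called.

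Dusp6 encodes a phosphatase that removes the activating phosphates from ERK. Its level was 71.6, 72.0 and 88.8 CPM in WT and 51.7, 80.1 and 96.7 CPM in the knockout. The lowest and the highest of the 6 values were both from knockout libraries. The log2 fold change was -0.02 (95% interval -0.39 to 0.34, edgeR adjusted p = 0.954), and without knockout A it was 0.19 (adjusted p = 0.297). Spred1, a membrane-bound inhibitor that restrains RAS through neurofibromin, was the steadiest of the 10 genes. It stood at 110, 109 and 105 CPM in WT and at 104, 107 and 110 CPM in the knockout, at a log2 fold change of -0.02 (95% interval -0.19 to 0.16, adjusted p = 0.934). The interval for Spred1 leaves room for less change than that for Dusp6 or Spry4.

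Etv4 and Etv5 encode closely related ETS factors of the PEA3 group. Etv4, at chr11:101769742-101785371 on the minus strand, stood at 94.8, 79.4 and 71.5 CPM in WT and at 116, 142 and 121 CPM in the knockout. Every knockout library lay above every WT library. The log2 fold change was 0.63 (SE 0.11, 95% interval 0.38 to 0.87, edgeR adjusted p = 0.0018), the largest of the 10, and the gene was called in all 18 alternative fits at log2 fold changes of 0.55 to 0.80. Its 159 expressed neighbours within 5 Mb had a median log2 fold change of 0.06. Etv5 stood at 204, 186 and 219 CPM in WT and at 165, 236 and 241 CPM in the knockout. As for Spry4, knockout A lay under all WT libraries and the other knockout libraries above them, and the log2 fold change was 0.08 (95% interval -0.19 to 0.34, adjusted p = 0.761). Without knockout A it was 0.23 (adjusted p = 0.0952).

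The ratio of the 2 ETS factors, examined after their values were seen, was higher in each knockout library than in any WT library. The log2 ratio of Etv4 to Etv5 in CPM was -1.11, -1.23 and -1.62 in WT and -0.51, -0.73 and -0.997 in the knockout. The mean difference was 0.57, and the exact two-sided permutation p of 0.1 is the smallest that 3 libraries against 3 can give. The highest ratio was that of knockout A, the library in which Etv5 was lowest.

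Egr1 encodes a zinc finger factor of the immediate early class, whose transcript appears within minutes of ERK activation. Its level was 22.9, 22.8 and 27.7 CPM in WT and 20.6, 15.5 and 25.4 CPM in the knockout. The groups overlapped, and the log2 fold change was -0.26 (95% interval -0.61 to 0.10, edgeR adjusted p = 0.352). Here knockout B was the lowest library.

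The knockout libraries were unequal in a way that ran through several of these genes. Knockout A was the lowest knockout library for 8 of the 10 genes, against 37.2% of all tested genes. The same held for 9 of 10 stem cell markers, 8 of 10 endoderm markers and 12 of 16 further immediate early genes. It also held for 7 of 13 further ligands, 4 of 7 further receptors and partners and 3 of 5 genes that read out ERK activity. The remaining lists of the pathway, described below, had shares under 37.2%. Knockout A was lowest for 6 of 18 inhibitors, 3 of 10 ETS genes, 10 of 28 cascade genes and 7 of 19 heparan genes. Its level was 35.8% of the mean of knockout B and C for Spry4, 58.5% for Dusp6, 64.2% for Spry2 and 69.3% for Etv5. It was 88.5% for Etv4, 94.7% for Fgf4, 96.4% for Fgfr1, 96.1% for Spred1, 99.6% for Fgfr2 and 100.6% for Egr1. The pattern of Spry4 and Etv5, with knockout A under every WT library and the others above, was shared by 290 genes, 1.67% of those tested, among them the stem cell markers Nanog and Esrrb. The mirror pattern, with knockout A over every WT library and the others under, was found in 400 genes, 2.31% of those tested. Nanog stood at 376, 581 and 620 CPM in the knockout libraries. Within the knockout the log2 range was 1.53 for Spry4 and 0.90 for Dusp6, against a median of 0.26 over the 11370 tested genes that averaged 100 counts or more. Knockout A also had the fewest counts and the lowest summed endoderm marker level of the 3, at 501 CPM. The fibroblast collagen Col3a1 was highest in the A library of each genotype, at 5.13 CPM against 0.606 and 1.0004 CPM in WT and 2.32 CPM against 0.087 and 0.101 CPM, under the floor, in the knockout, and Col1a2 stood at 3.32, 0.44 and 0.61 CPM in the knockout. Fbn1, which made up most of the fibroblast marker sum in the knockout, went another way. It was lowest in knockout B and highest in knockout C. The part of these differences in the values of Spry4, Dusp6, Spry2 and Etv5 was not tested.

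**Figure D2:**
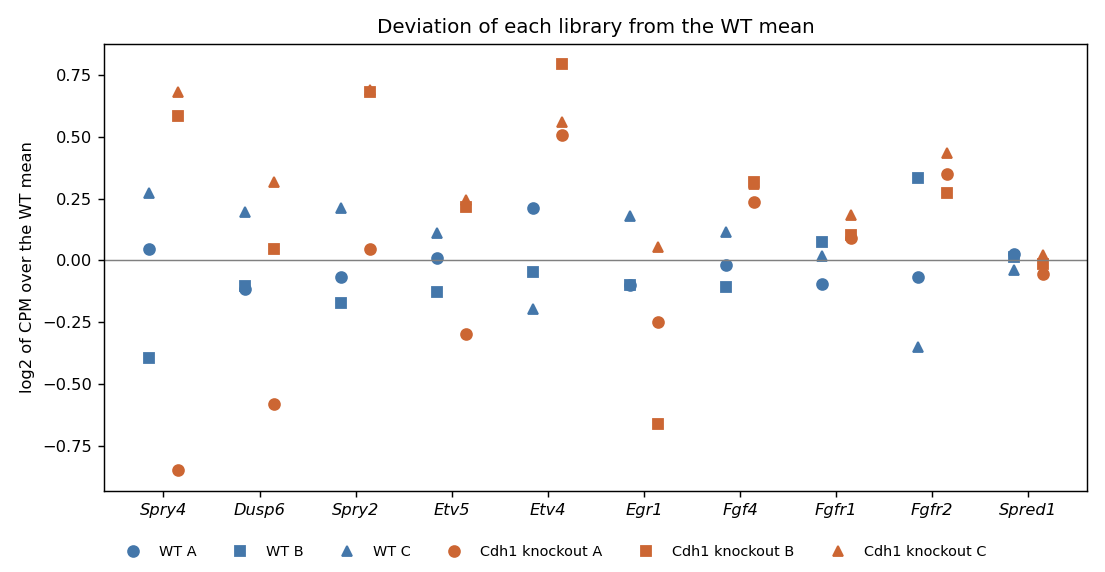
Level of each gene in each library as log2 of its CPM over the WT mean, with genes in an order that does not follow their spread. WT libraries are in blue and knockout libraries in orange. The log2 range was 0.72 for Egr1 within the knockout and 0.68 for Fgfr2 within WT. Both are wider than the 0.65 of Spry2 within the knockout. Knockout A sits at -0.85 for Spry4 and -0.58 for Dusp6, while knockout B and C sit at 0.59 and 0.68 for Spry4.

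Beyond these 10 genes, 133 further genes of the pathway were listed by role in 8 lists. Of the 132 found in the table, 115 were tested. In the knockout 17 were called higher and 7 lower, together 20.9%, where 13.3% of all tested genes were called, and their median log2 fold change was 0.09. Of the 24 called, 15 passed in each of the 6 fits that left out 1 library and 9 did not, as given below by role. The share called in each list is to be read against the same 13.3%.

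**Figure D3:**
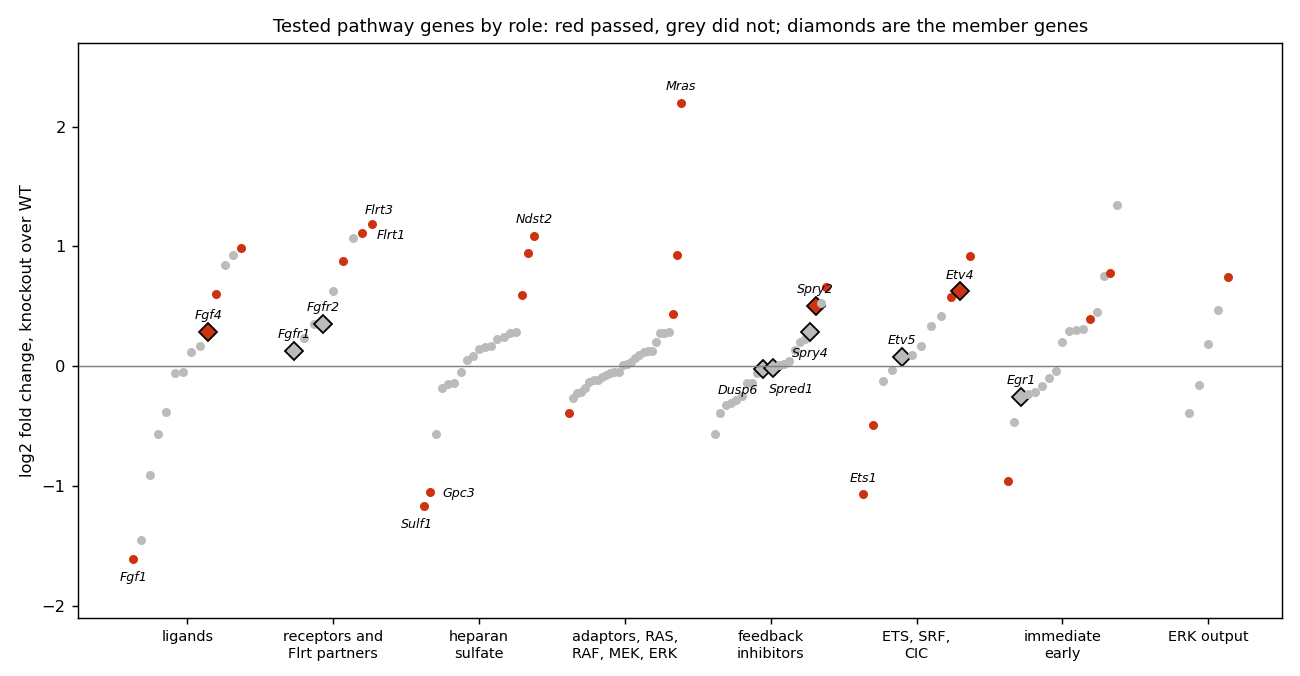
Fitted log2 fold change (knockout over WT) of every tested gene of the pathway, in columns by role and ordered by value within a column, with called genes in red, genes not called in grey and the 10 genes of the main set as diamonds. Mras, at 2.20, is the highest called gene and Fgf1, at -1.61, the lowest.

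Of 23 further ligands and ligand-binding proteins 13 were tested, and 2 rose and 1 fell (23.1%). Fgf1, a ligand that can activate all FGF receptors, stood at 11.1, 10.7 and 10.3 CPM in WT and at 2.32, 3.49 and 4.64 CPM in the knockout, with no overlap and a log2 fold change of -1.61 (SE 0.24, edgeR adjusted p = 0.00034). Fgf3, a secreted ligand next to Fgf4 on chromosome 7, rose by 0.99 on the log2 scale (adjusted p = 0.0194), and Fgf11, an FGF homologous factor that stays in the cell, rose by 0.60 (adjusted p = 0.0193). The call of Fgf3 was lost without WT A (adjusted p = 0.0776), WT C (0.0692) or knockout C (0.12), and that of Fgf11 without WT A (0.0774) or WT C (0.0639). Fgf17, the next most abundant ligand per length at 15.5 TPM in WT, did not pass (log2 fold change 0.17, adjusted p = 0.655), while its neighbours on chromosome 14 had a median of 0.59.

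Of 8 further receptors and receptor partners 7 were tested, and 3 rose and none fell (42.9%). Fgfr3, a kinase receptor, stood at 14.2, 12 and 11.3 CPM in WT and at 20.6, 28.0 and 20.2 CPM in the knockout, with no overlap and a log2 fold change of 0.88 (SE 0.16, edgeR adjusted p = 0.0018). Flrt3 and Flrt1, membrane proteins that bind FGF receptors, rose by 1.18 (adjusted p = 0.005) and 1.11 (adjusted p = 0.0153) on the log2 scale. The call of Flrt1 was lost without WT A (adjusted p = 0.0651), WT B (0.0839) or knockout B (0.0972). Fgfrl1, a receptor that lacks the kinase domain and the most abundant of these 8 genes at 11.6 TPM in WT, did not pass (log2 fold change 0.35, adjusted p = 0.213).

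Of 21 genes that make, trim or carry heparan sulfate 19 were tested, and 3 rose and 2 fell (26.3%). Sulf1, an enzyme that removes sulfate groups from heparan sulfate outside the cell, stood at 43.5, 38.7 and 33.8 CPM in WT and at 13.2, 18.6 and 19.8 CPM in the knockout, a log2 fold change of -1.17 (SE 0.15, edgeR adjusted p = 0.00014). Its relative Sulf2, the most abundant of the list at 122 TPM in WT, did not pass (log2 fold change 0.24, adjusted p = 0.166). Gpc3, a glypican of the cell surface, fell by 1.05 on the log2 scale, from 114 ± 9.17 to 55.2 ± 12.2 CPM (SD, n = 3; adjusted p = 0.00013). Ext2, a subunit of the enzyme that extends the chain, rose by 0.59 (adjusted p = 0.00074), and Ndst2, which starts sulfation of the chain, by 1.09 (adjusted p = 0.00011). Sulf1 is on chromosome 1 and Ndst2 on chromosome 14, where neighbours had medians of -0.23 and 0.56. With the chromosome medians removed, both still passed, at -0.86 and 0.54. Gpc6, a glypican on chromosome 14, rose by 0.94 (adjusted p = 0.0126), but its neighbours had a median of 0.74, and with the chromosome medians removed it did not pass (0.40, adjusted p = 0.305). It also did not pass without WT A (adjusted p = 0.0596).

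All 28 adaptors, RAS proteins and kinases of the cascade were tested, and 3 rose and 1 fell, which is 14.3% of the list and close to the share of all tested genes. Mras, a RAS-related GTPase that assembles the SHOC2 phosphatase complex, stood at 15.2, 15.5 and 17.8 CPM in WT and at 48.2, 89.6 and 84.1 CPM in the knockout. The groups were far apart, at a log2 fold change of 2.20 (SE 0.19, edgeR adjusted p = 4.7e-06). Gab1, a docking protein for activated receptors and the most abundant of the list at 195 TPM in WT, stood at 387, 385 and 387 CPM in WT and at 509, 513 and 540 CPM in the knockout, 0.43 higher on the log2 scale (adjusted p = 0.0015). Among the RAF kinases, Araf rose by 0.93 (adjusted p = 8.1e-05), and Braf fell by 0.40 on the log2 scale (adjusted p = 0.0173). Araf lies in the first 30 Mb of the X chromosome, where 65 of 100 tested genes were called higher, and its neighbours had a median log2 fold change of 0.93. With the median of that stretch removed, Araf stood at 0.0048 (adjusted p = 0.989). The call of Braf was lost without WT A (adjusted p = 0.0668), WT B (0.104), knockout B (0.079) or knockout C (0.101).

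Among 18 tested inhibitors other than the 4 above, 1 rose and none fell, which is 5.56% of the list. It was Dusp9, an ERK phosphatase gene on the X chromosome outside the shifted stretch and the most abundant of the list at 234 TPM in WT. Its level was 235, 236 and 292 CPM in WT and 371, 390 and 442 CPM in the knockout. The groups did not overlap, the log2 fold change was 0.66 (SE 0.10, edgeR adjusted p = 0.00056), and its neighbours had a median of 0.05. Unlike for Spry4 and Dusp6, the 3 knockout libraries were close to one another, and the difference between these patterns was not tested.

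Of 10 further genes, ETS factors listed together with SRF and CIC, all tested, 2 rose and 2 fell (40%). Ets1, the founding ETS factor, stood at 9.54, 10.2 and 11 CPM in WT and at 4.64, 4.37 and 5.65 CPM in the knockout, a log2 fold change of -1.07 (SE 0.19, edgeR adjusted p = 0.0016). Elk1, Elk3 and Elk4 encode the ternary complex factors that act with SRF. Elk3 rose by 0.58 (adjusted p = 0.0261), Elk1 rose by 0.92 (adjusted p = 5.1e-05) and Elk4 fell by 0.49 on the log2 scale (adjusted p = 0.0451). Elk1 is a neighbour of Araf, and with the median of that stretch of the X chromosome removed it stood at -0.0072 (adjusted p = 0.981). Elk4 is on chromosome 1, whose median deviation was -0.33 to -0.29 in the knockout libraries, and with it removed Elk4 stood at -0.18 (adjusted p = 0.532). Elk4 did not pass without WT A (adjusted p = 0.139), WT B (0.121), WT C (0.0915), knockout B (0.0685) or knockout C (0.173). Elk3 did not pass without WT A (0.102), WT B (0.066), WT C (0.0675), knockout B (0.0912) or knockout C (0.0973). Erf, an ETS repressor that ERK exports from the nucleus, was the most abundant of these 10 at 119 TPM in WT and did not pass (log2 fold change 0.42, adjusted p = 0.102).

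**Figure D4:**
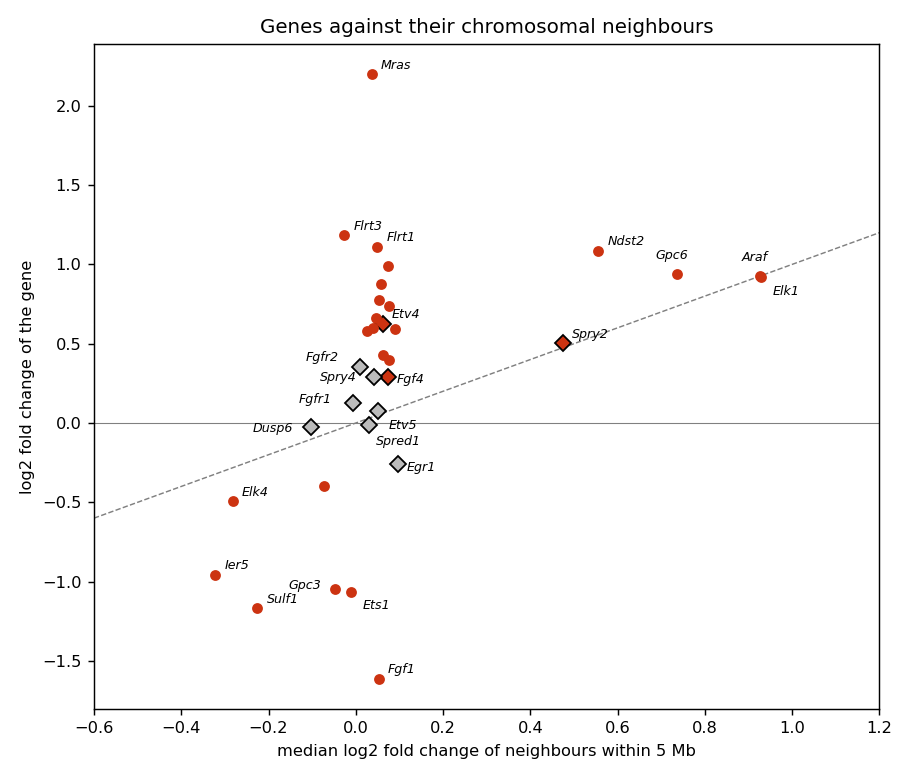
Fitted log2 fold change of each of the 10 genes (diamonds) and of the called pathway genes (circles) against the median log2 fold change of expressed genes within 5 Mb, with called genes in red, genes not called in grey and equality as a dashed line. Spry2, Araf and Elk1 lie on the dashed line, at neighbour medians of 0.47, 0.93 and 0.93, while Etv4 and Fgf4 lie above it near neighbour medians of 0.06 and 0.07.

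Of 20 further immediate early genes 16 were tested, and 2 rose and 1 fell (18.8%). Jun, a subunit of AP-1, stood at 10.8, 12.9 and 13.4 CPM in WT and at 21.6, 18.3 and 23.8 CPM in the knockout, with no overlap and a log2 fold change of 0.78 (SE 0.15, edgeR adjusted p = 0.0026). Nr4a1, an orphan nuclear receptor, rose by 0.40 (adjusted p = 0.0486), and Ier5 fell by 0.96 on the log2 scale (adjusted p = 0.007). Ier5 is on chromosome 1, and with the chromosome medians removed it stood at -0.64 (adjusted p = 0.0701). Nr4a1 did not pass in that fit (0.0593), nor without WT A (0.109), WT B (0.149), WT C (0.135), knockout B (0.131) or knockout C (0.216). The most abundant genes of the list did not pass: Mcl1, a survival factor, stood at 0.20 on the log2 scale (adjusted p = 0.145) and Ier2 at 0.29 (adjusted p = 0.264).

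Of 5 further genes that read out ERK activity, all tested, 1 rose and none fell (20%). Of the 5, 1 gene that was not called is also counted among the inhibitors above. Epha2, an ephrin receptor, stood at 162, 128 and 186 CPM in WT and at 176, 312 and 308 CPM in the knockout, a log2 fold change of 0.74 (SE 0.18, edgeR adjusted p = 0.0125). Knockout A lay inside the WT range, as for Spry2. The call was lost without WT A (adjusted p = 0.0539), WT B (0.098), knockout B (0.0798) or knockout C (0.0687). Ccnd1, which encodes the cell cycle regulator cyclin D1, stood at 77.2, 73.1 and 69.8 CPM in WT and at 67.9, 95.1 and 87.1 CPM in the knockout and did not pass (log2 fold change 0.19, adjusted p = 0.336).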

How the data were processed

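Total RNA was isolated with TRIzol and made into strand-specific libraries with a directional kit, per the labels' protocols. The authors deposited raw counts per gene, not normalized. The submitters' processing notes name cutadapt 2.10, STAR 2.7.5b, featureCounts 2.0.1 and the build GRCm38. Strand, read pair and multiple-hit settings are not given in the sources used here. Even values made up 78.1% to 83.1% of counts from 1 to 10, so both mates of a pair may have been counted, and the floor was set to 6 counts. This floor covers counting error only. Symbols came from GENCODE M21 by Ensembl identifier, for 55141 of 55401 genes.

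Counts were tested in R 4.3.3 with edgeR 4.0.16 (filterByExpr by group, TMM, glmQLFit and glmQLFTest, genotype as the only term). The same procedure was run on simulated data, where it recovered 67.7% of 2-fold and 92.8% of 4-fold changes, with 8 false calls among 163. Smaller changes were not simulated. Standard errors came from the F statistic, and 95% intervals from the t distribution with the fit's degrees of freedom. TPM used the table's exon lengths. Neighbours were tested genes within 5 Mb with a mean of at least 100 counts. Alternatives were other scalings, filters, DESeq2 1.42.0, limma-voom (limma 3.58.1), a replicate block, leaving out each library, halved counts, an adjusted p of 0.01 and removal of chromosome medians. Removal of the median of the first 30 Mb of X, and of both A libraries, was added after the data were seen.

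The genes and lists were chosen with earlier results of these data known. Named are all 10 genes, every called pathway gene, the 2 most abundant genes per length of each list, Cdh1 and cell type markers. The result for 1 gene under this rule is left out of the text.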

Additional observations from a re-analysis of the deposited data

How the results depend on the processing

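The 3 calls among the 10 genes became 1 with upper quartile factors and 1 at an adjusted p under 0.01, and between 1 and 4 when single libraries were left out. Called pathway genes numbered 24 and became 15 at an adjusted p under 0.01 and 15 to 36 when single libraries were left out, and calls over all genes became 1242 and 1374 to 2784. With upper quartile factors Fgf4 stood at an adjusted p of 0.0585 and Spry2 at 0.0527, and without both A libraries Fgf4 stood at 0.0728. Spry4 passed with no filter (adjusted p = 0.028), without knockout A and without both A libraries. The log2 fold change changed sign for Spry2 (-0.0398 after subtracting the medians of chromosomes 1 and 14, and -0.0398 when proximal X was subtracted too), for Dusp6 (0.0042 with no filter, 0.13 without both A libraries, -0.22 to 0.19 when single libraries were left out), for Spred1 (0.0123 with no filter, 0.0151 without both A libraries, -0.027 to 0.0044 when single libraries were left out) and for Etv5 (-0.0105 to 0.23 when single libraries were left out). The cause was not tested. The labels do not say that letters pair libraries, and the deviations of same-lettered libraries correlated over genes at 0.16 (A), -0.15 (B) and 0.40 (C). Not every library correlated best with its own letter. With the replicate block, 3 of the 10 genes, 31 pathway genes and 2686 genes in all were called. With the medians of chromosomes 1 and 14 removed, these counts were 2, 22 and 1706, so the background share of calls was lower too. With the median of proximal X removed as well, they were 2, 20 and 1640. The other settings kept the counts of calls within 1.5 times. Of the 10 genes, Fgfr2 had the lowest level, 3.40 to 5.85 CPM, against a floor of 0.262 to 0.332 CPM.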

Other observations

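The shift that holds Araf and Elk1 covered the start of the X chromosome and was chosen for description after its values were seen. In the first 30 Mb, 65 of 100 tested genes were called higher and 3 lower, with a median ratio of knockout to WT of 1.82. In the rest of the X chromosome, 23 of 484 tested genes were called higher and 43 lower, with a median ratio of 0.96. In windows of 10 Mb from the start, the median log2 fold change was 0.88, 0.56 and 0.95, and in the next window it was -0.20. The median deviation from WT of the first 30 Mb was 0.93, 0.88 and 0.92 in knockout libraries A, B and C.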
